A study of Mus musculus with 12 samples.

Results

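The 9 genes described here mark the oligodendrocyte lineage from the precursor cell to the commitment step: Pdgfra, Cspg4, Sox10, Olig1, Olig2, Gpr17, Lhfpl3, Nkx2-2 and Enpp6. They were matched by gene name, and all 9 were among the 55862 genes of the deposited table. RNA had been sequenced from 12 samples of mouse brain cells, in 4 groups of 3. The labels give the strain as C57BL/6 for every sample, whereas the methods name C57BL/6J for the mice of both NPC groups. ASTs were primary astrocytes from the cerebral cortex of newborn pups, grown with serum as a monolayer and taken at day 0 of the sphere culture. A-iSCs, the stem cell-like cells of the study, were the same kind of astrocytes after 5 days as spheres on agarose-coated dishes. P56-NPCs were a cell suspension dissociated from the subependymal zone of adult mice at postnatal day 56, and P0-NPCs a suspension dissociated from the hippocampus at postnatal day 0. The labels name no transgene, deletion or added factor in any group. The methods describe no sorting of the NPC suspensions, which are therefore mixtures of cells, and the NPC groups differed in age and region at once, so that age and region cannot be told apart. The methods say of the work in general that experiments were repeated independently, but the sources used here do not tie the sequenced samples to separate mice or cultures, so p-values measure only the spread between these samples, which may be technical.

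Oligodendrocytes, the myelin-forming cells of the central nervous system, arise from precursor cells that divide in response to platelet-derived growth factor (PDGF) through the receptor encoded by Pdgfra. The basic helix-loop-helix factors Olig1 and Olig2 and the homeobox factor Nkx2-2 act in the specification of the lineage, and Olig2 is also present in other neural progenitors and in some astrocytes. Sox10 is kept through all stages of the lineage and is needed for myelination, while Gpr17 and Enpp6 appear for a short time when a precursor commits to become an oligodendrocyte.

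The values were FPKM, a measure that divides fragments by the length of the gene and a size of the library, so that levels can be compared between genes. The size behind these values was not the number of fragments on genes. It was 0.744 to 0.779 of that number in P56-NPCs and 0.941 to 0.985 in ASTs. In A-iSCs it was 1.10 to 1.15 and in P0-NPCs 1.15 to 1.22 of that number. A smaller size gives a higher FPKM. The libraries held 17077780 to 24452419 fragments on genes, and for a gene 1 kilobase long 3 fragments were worth 0.103 to 0.187 FPKM. The share of fragments on mitochondrial genes was 16.5 to 17.6% in P56-NPCs and 2.94 to 7.03% in the other libraries. In a chi-square comparison of replicates, A-iSC replicate 3 (95.1 and 75.5 per degree of freedom) and AST replicate 2 (39.5 and 40.9) stood farthest from their groups, and no pair of replicates differed by less than sampling noise. The number of the 9 genes called between A-iSCs and ASTs was 7 without A-iSC replicate 3 and 6 without AST replicate 2, against 6 with all samples.

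From ASTs to A-iSCs, Sox10, Pdgfra, Lhfpl3 and Gpr17 went up from at most 0.942 FPKM in the mean, by 14.7-fold or more, while Cspg4 went down. Olig1 and Olig2 already had means of 84.5 and 26.7 FPKM in ASTs and had 1.19 and 1.35 times these means in A-iSCs, of which only the Olig2 difference was called. Nkx2-2 was low in ASTs, at 2.23 FPKM, and was not called. Of the 9 genes, 8 reached a mean of 1 FPKM in either group and were tested. Pdgfra, Sox10, Olig2, Gpr17 and Lhfpl3 were higher in A-iSCs, that is 5 of the 8, and Cspg4 was lower. Of these 5, all but Olig2 were under 1 FPKM in ASTs and were tested only because A-iSCs were above it, so that the count describes the tested genes and is no measure of how often such genes rise. Over all genes tested, 25.2% were called higher and 29.6% lower in A-iSCs. The median log2 fold change was 0.93 for the 8 tested members, 0.41 for all 9 members, and -0.06 for all genes tested. Calls were made with limma on log2(FPKM + 1) at an adjusted p under 0.05, and fold changes on this scale understate the change of genes with low values.

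All 9 genes were higher in P56-NPCs than in ASTs, where 39.1% of all genes tested were called higher and 39.8% lower, and all 9 had their highest mean of the 4 groups in P56-NPCs. Against P0-NPCs, P56-NPCs were higher for 9 of 9 genes, beside 39.7% of all genes higher and 39% lower. A-iSCs were lower than P56-NPCs for 9 of 9 genes, beside 30.9% of all genes called lower and 30.1% higher in A-iSCs. With scaling by library size, Lhfpl3 turned and was called higher in A-iSCs (log2 fold change 0.23, adjusted p = 0.0468). The medians of the members were 3.29 for P56-NPCs over ASTs, 2.68 for P56-NPCs over P0-NPCs and -1.64 for A-iSCs over P56-NPCs on the log2 scale, against -0.03, 0.01 and 0.03 for all genes. In these comparisons 5, 3 and 1 of the 9 genes were tested through P56-NPCs alone, being under 1 FPKM in the other group.

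P0-NPCs took different places for different genes. Compared with ASTs, 3 of 7 tested genes were higher (Pdgfra, Sox10 and Lhfpl3) and 4 were lower (Cspg4, Olig1, Olig2 and Nkx2-2), while 38.1% of all genes were called higher and 40.9% lower. Compared with P0-NPCs, A-iSCs were higher for 6 of 8 tested genes and lower for Pdgfra, beside 31.5% of all genes higher and 33.6% lower. The medians of the tested members were -0.28 and 1.25 in these comparisons and those of all 9 members -0.03 and 1.17, against -0.07 and -0.02 for all genes. The 3 genes higher in P0-NPCs than in ASTs were tested through P0-NPCs alone and Nkx2-2 through ASTs alone, and of the genes higher in A-iSCs than in P0-NPCs this holds for Gpr17 and Nkx2-2, which were under 1 FPKM in P0-NPCs. The comparisons with a common group share its samples and are given side by side for that reason.

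**Figure D1:**
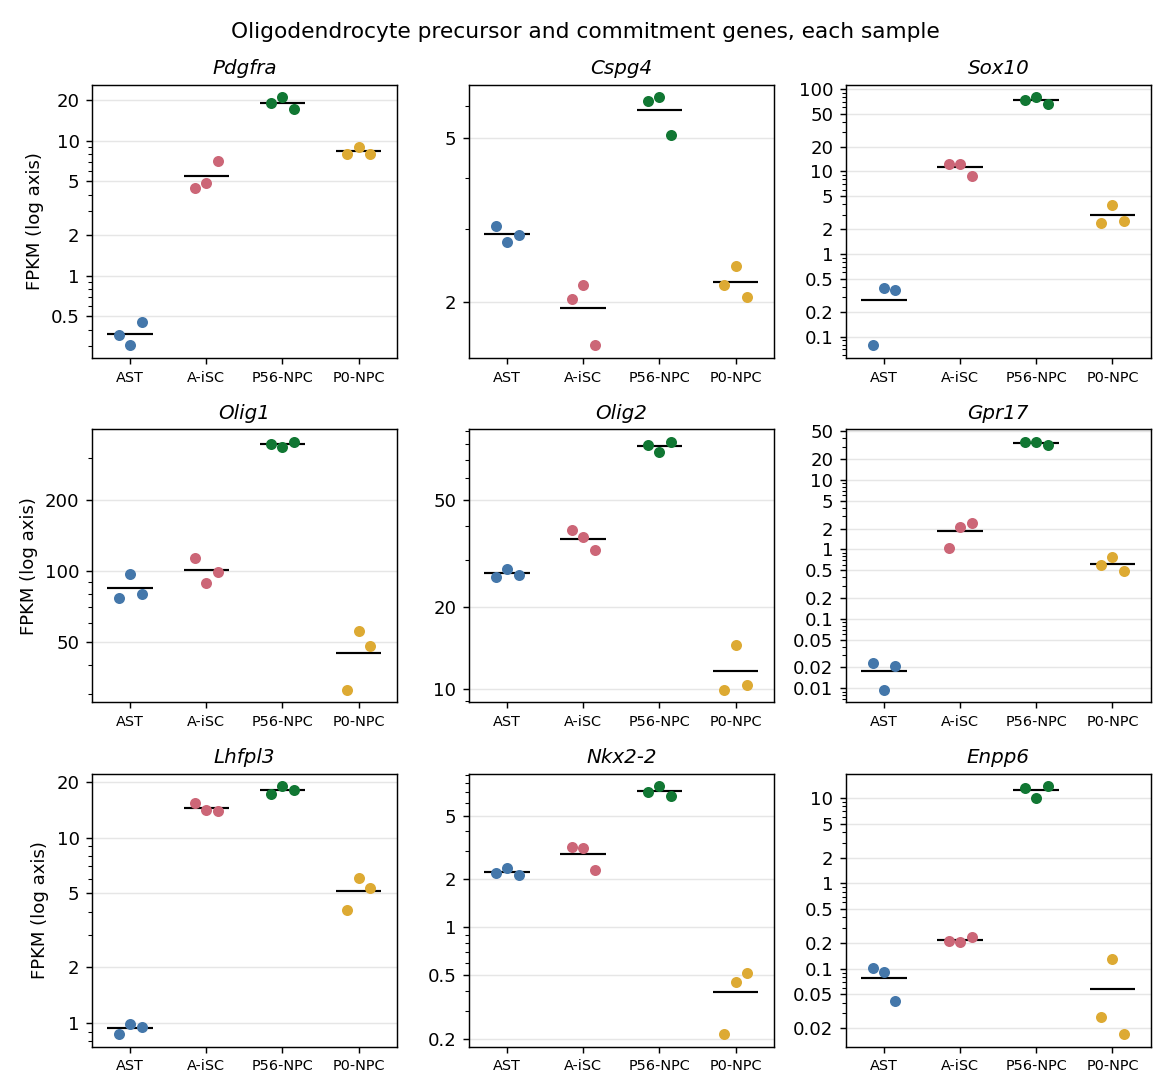
Level of each of the 9 genes in every sample, in FPKM on a log axis whose range differs between panels, with 3 points per group and a bar at the group mean. P56-NPCs are highest in all 9 panels, and the A-iSC points lie far above the AST points for Pdgfra, Sox10, Gpr17 and Lhfpl3 but overlap them for Olig1 and Nkx2-2.

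Olig1 (ENSMUSG00000046160, GRCm38 chromosome 16 from 91269772 to 91271933) had the highest level of the 9 genes in every group. Its FPKM were 77.0, 96.7 and 79.9 in ASTs, 113, 89.2 and 99.1 in A-iSCs, 343, 335 and 352 in P56-NPCs, and 31.3, 55.9 and 48.0 in P0-NPCs. The AST and A-iSC samples overlapped, since AST replicate 2 lay above A-iSC replicate 2, and the difference of 0.25 ± 0.15 (SE) in log2 did not pass the test (adjusted p = 0.206). When the libraries were scaled by size alone the difference was 0.46 and was called (adjusted p = 0.0247). Olig1 was 4.06-fold higher in P56-NPCs than in ASTs (log2 fold change 2.02 ± 0.11, adjusted p = 2.47e-06) and lower in P0-NPCs than in ASTs (log2 fold change -0.93 ± 0.21, adjusted p = 0.00374). The mean Olig1 level of the astrocyte culture was 1.88 times that of the newborn hippocampal suspension.

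Olig2 (ENSMUSG00000039830, chromosome 16 from 91225457 to 91228677) lies on the same strand as Olig1, with 41094 bases between the end of Olig2 and the start of Olig1. Its FPKM were 25.9, 27.7 and 26.4 in ASTs and 38.7, 36.3 and 32.7 in A-iSCs. The groups did not overlap, and A-iSCs were higher by 1.35-fold (log2 fold change 0.41 ± 0.11, adjusted p = 0.0178). The call did not survive leaving out AST replicate 1 or 3 or A-iSC replicate 1 or 2 (adjusted p 0.0572 to 0.0805), and with upper-quartile scaling (log2 fold change 0.29, adjusted p = 0.0640). P56-NPCs had 79.4, 75.2 and 81.8 FPKM and P0-NPCs 9.88, 14.5 and 10.3 FPKM. All 4 groups were apart, in the order P56-NPCs, A-iSCs, ASTs and P0-NPCs. The order of the Olig1 means was the same, with A-iSCs and ASTs not separated.

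Nkx2-2 (ENSMUSG00000027434, chromosome 2 from 147177546 to 147194243) is a homeobox factor that acts with Olig2 in the specification and differentiation of the lineage. Its FPKM were 2.20, 2.37 and 2.12 in ASTs, 3.18, 3.15 and 2.30 in A-iSCs, 7.09, 7.65 and 6.67 in P56-NPCs, and 0.213, 0.454 and 0.518 in P0-NPCs. A-iSC replicate 3 lay within the range of the ASTs, and the difference of 0.26 ± 0.13 in log2 was not called (adjusted p = 0.132). Without A-iSC replicate 3 it was 0.37 and was called (adjusted p = 0.0129), and scaling by library size gave 0.41 (adjusted p = 0.0316). In P0-NPCs, whose libraries held 14, 38 and 41 fragments of Nkx2-2, the level was 5.64-fold below that of ASTs (log2 fold change -1.22 ± 0.11, adjusted p = 2.31e-05). The antisense gene Nkx2-2os shares 278 of the exon bases of Nkx2-2, which is 9.67% of them, and had 0.00826 FPKM in ASTs, 0.109 in A-iSCs, 1.25 in P56-NPCs and 0.0295 in P0-NPCs. The sources used here do not say that reads were counted by strand, so that reads of the shared stretch cannot be assigned to either gene.

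Sox10 (ENSMUSG00000033006, chromosome 15 from 79154908 to 79165240, minus strand) encodes a high-mobility-group factor that drives the expression of myelin genes. It had 0.0782, 0.388 and 0.371 FPKM in ASTs, which were 4, 24 and 21 fragments. In A-iSCs it had 12.3, 12.4 and 8.83 FPKM, from 722 to 897 fragments. The lowest A-iSC sample lay more than an order of magnitude above the highest AST sample. The ratio of the mean FPKM was 40.1. The ratio of the summed fragments, at the library sizes behind the FPKM, was 38.1. Its 95% interval from counting alone was 28.8 to 51.7. The log2 fold change of 3.25 ± 0.17 had an adjusted p of 1.01e-05 and was called under all alternatives. P56-NPCs stood 6.48-fold above A-iSCs, with 72.5, 78.8 and 66.0 FPKM. P0-NPCs had 2.38, 3.93 and 2.51 FPKM and stood below A-iSCs (log2 fold change of A-iSCs over P0-NPCs 1.63 ± 0.19, adjusted p = 0.000163) and above ASTs (1.61 ± 0.17, adjusted p = 5.58e-05). The 4 groups were thus apart in the order P56-NPCs, A-iSCs, P0-NPCs and ASTs.

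The study also measured Sox10 by RT-PCR, and its primer pair is shown because it marks the stretch of the transcript that was read there. The pair, written 5′ to 3′ in lower case, was matched to the GENCODE transcripts of GRCm38.
Sox10 forward primer: ggaggttgctgaacgaaagtg
Sox10 reverse primer: gagcctctcagcctcctcaa
In the transcript Sox10-201 the pair frames a product of 56 bases that spans the junction of exons 2 and 3 of 4 and is coding over all 56 bases. On the genome the product runs from 79159352 to 79163292 on chromosome 15. The FPKM used here count fragments over all exons of the gene, 3051 bases in total, and not over this product alone.

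Sox10 is also a factor of the neural crest and of Schwann cells, the myelin-forming cells of peripheral nerves. Of a list of 4 markers of these cells, the summed level was 1.32 to 2.54 FPKM in A-iSCs and 7.43 to 9.68 FPKM in ASTs. Ngfr fell from ASTs to A-iSCs, as did Prx, which was tested through ASTs alone, and the other 2 were too low to be tested. Foxd3, a defining neural crest factor, had 1 fragment in A-iSC replicate 3 and none in the other 11 samples.

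Pdgfra (ENSMUSG00000029231, chromosome 5 from 75152292 to 75198215) encodes the PDGF receptor α, the classical surface marker of precursors. Its FPKM were 0.363, 0.305 and 0.451 in ASTs and 4.49, 4.87 and 7.14 in A-iSCs, a 14.7-fold difference in the means. The groups were far apart, with A-iSC replicate 3 the highest of its group (log2 fold change 2.22 ± 0.17, adjusted p = 4.12e-05). P56-NPCs had 19.1, 21.0 and 17.1 FPKM and P0-NPCs 7.94, 9.07 and 8.01 FPKM. Pdgfra was the only one of the 9 genes called lower in A-iSCs than in P0-NPCs (log2 fold change -0.54 ± 0.16, adjusted p = 0.0195), a call that was lost in 4 of the 6 fits that left out a sample, without A-iSC replicate 1 or 2 or P0-NPC replicate 2 or 3 (adjusted p 0.0508 to 0.0745). Its order of groups, P56-NPCs, P0-NPCs, A-iSCs and ASTs, was shared by no other of the 9 genes.

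Cspg4 (ENSMUSG00000032911, chromosome 9 from 56865033 to 56899870) encodes the NG2 proteoglycan, found on precursors and on pericytes, the mural cells of small vessels. It had 3.06, 2.79 and 2.91 FPKM in ASTs and 2.03, 2.19 and 1.56 FPKM in A-iSCs. It was the only one of the 9 genes called lower in the sphere culture, where it fell by 0.43 ± 0.12 on the log2 scale (adjusted p = 0.0203). The direction was opposite to that of the surface genes Pdgfra and Lhfpl3. The call was lost without AST replicate 1 or 3 (adjusted p 0.0793 and 0.0680) and with scaling by library size (log2 fold change -0.28, adjusted p = 0.106). P56-NPCs had 6.17, 6.29 and 5.10 FPKM, above all other groups. P0-NPCs had 2.19, 2.44 and 2.05 FPKM, which overlapped the A-iSCs (log2 fold change of A-iSCs over P0-NPCs -0.15 ± 0.12, adjusted p = 0.334). The lower level of P0-NPCs than of ASTs (log2 fold change -0.28 ± 0.09, adjusted p = 0.0177) was not called without AST replicate 1 or 3 or P0-NPC replicate 1 or 3, nor with scaling by library size, where it was -0.07.

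Pdgfra is also expressed by fibroblasts and Cspg4 by pericytes, and markers of both moved between the groups. Fibroblast markers (8 genes) summed to 180 to 232 FPKM in ASTs, 18.3 to 22.0 in A-iSCs, 13.9 to 24.3 in P56-NPCs and 140 to 151 in P0-NPCs. From ASTs to A-iSCs, 4 of 6 tested fibroblast genes fell, 1 of them tested through ASTs alone, and 1 rose, led by Col1a1 with 158 and 2.98 FPKM in the means. Pericyte markers (7 genes) summed to 3.76 to 7.18 FPKM in ASTs, 7.76 to 9.46 in A-iSCs, 9.36 to 9.59 in P56-NPCs and 114 to 129 in P0-NPCs. Endothelial markers (5 genes) were at 74.8 to 77.1 FPKM in P0-NPCs and at most 5.09 in the other groups. The part of fibroblasts and mural cells in the Pdgfra and Cspg4 levels of P0-NPCs was not tested.

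Lhfpl3 (ENSMUSG00000106379, chromosome 5 from 22746059 to 23275597) encodes a membrane protein of the lipoma HMGIC fusion partner-like family and is used as a precursor marker. It had 0.872, 0.998 and 0.955 FPKM in ASTs and 15.4, 14.0 and 13.9 FPKM in A-iSCs. The samples of each group lay close together, and the 15.3-fold difference (log2 fold change 2.99 ± 0.10) had the smallest adjusted p of the 9 genes in this comparison, 3.54e-06. A-iSCs came nearer to P56-NPCs for Lhfpl3 than for any other of the 9 genes, with 17.1, 18.8 and 18.0 FPKM in P56-NPCs. The difference of -0.30 ± 0.09 between A-iSCs and P56-NPCs in log2 was called (adjusted p = 0.0262), but not without A-iSC replicate 2 or any of the P56-NPC samples (adjusted p 0.0636 to 0.0950) nor with the replicate block (adjusted p = 0.0803). With scaling by library size it turned to 0.23 (adjusted p = 0.0468). P0-NPCs had 4.10, 6.04 and 5.37 FPKM, between ASTs and A-iSCs. The non-coding gene A930003O13Rik shares 567 exon bases, or 17.6%, with Lhfpl3 and had at most 0.317 FPKM in the mean of a group.

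Promoters are shown so that genes that rose, fell or were not called from ASTs to A-iSCs can be read side by side. Olig1 and Olig2 are basic helix-loop-helix factors, whose family binds the E-box, CANNTG. RefSeq promoter windows on GRCm38.p6 were at hand for 6 of the 9 genes, and all 6 are given. The 250 bases before the start site in RefSeq are given 5′ to 3′ on the gene's strand, with E-boxes in capitals. This start can differ from the gene bounds printed here, which are those of the deposited table. The Nkx2-2 window lies inside the printed span of its gene, on the minus strand, the Olig2 and Cspg4 windows reach past the printed start, and the Pdgfra and Lhfpl3 windows end short of it.
Pdgfra, chr5:75152001-75152250: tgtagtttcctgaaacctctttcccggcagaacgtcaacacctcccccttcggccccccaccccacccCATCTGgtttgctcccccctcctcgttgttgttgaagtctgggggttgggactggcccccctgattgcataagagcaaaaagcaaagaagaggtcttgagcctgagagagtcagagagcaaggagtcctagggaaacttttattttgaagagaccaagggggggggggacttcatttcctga
Lhfpl3, chr5:22745804-22746053: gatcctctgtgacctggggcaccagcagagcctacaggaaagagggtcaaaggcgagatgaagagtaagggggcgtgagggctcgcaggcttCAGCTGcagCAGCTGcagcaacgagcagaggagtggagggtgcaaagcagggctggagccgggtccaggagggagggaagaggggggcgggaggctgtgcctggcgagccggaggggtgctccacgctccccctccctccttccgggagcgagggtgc
Olig2, chr16:91225300-91225549: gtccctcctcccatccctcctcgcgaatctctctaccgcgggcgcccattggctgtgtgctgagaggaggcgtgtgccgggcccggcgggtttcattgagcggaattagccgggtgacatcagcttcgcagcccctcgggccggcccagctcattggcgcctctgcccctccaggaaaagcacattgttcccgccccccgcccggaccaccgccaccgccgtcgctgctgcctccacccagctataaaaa
Cspg4, chr9:56864854-56865103: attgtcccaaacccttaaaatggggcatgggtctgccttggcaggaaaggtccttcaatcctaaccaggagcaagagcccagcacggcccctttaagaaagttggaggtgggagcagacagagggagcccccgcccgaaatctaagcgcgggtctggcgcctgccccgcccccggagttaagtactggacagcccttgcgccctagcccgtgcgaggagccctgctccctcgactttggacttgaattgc
Nkx2-2, chr2:147186403-147186652 (minus strand): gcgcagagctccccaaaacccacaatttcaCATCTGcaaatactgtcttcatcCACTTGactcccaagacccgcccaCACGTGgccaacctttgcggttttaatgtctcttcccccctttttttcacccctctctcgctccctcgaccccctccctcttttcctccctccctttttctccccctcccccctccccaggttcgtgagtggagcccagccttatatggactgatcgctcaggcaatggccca
Enpp6, chr8:46986637-46986886: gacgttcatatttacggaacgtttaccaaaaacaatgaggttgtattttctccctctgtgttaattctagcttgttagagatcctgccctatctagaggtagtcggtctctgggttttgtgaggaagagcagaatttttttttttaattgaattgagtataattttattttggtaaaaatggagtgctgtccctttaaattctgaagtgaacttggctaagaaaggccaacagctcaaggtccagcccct
The Pdgfra window held 1 E-box, with the letters CAGATG read on the opposite strand, and the Lhfpl3 window held 2, both CAGCTG and 9 bases apart. Nkx2-2, which was not called, had the most, with 3, of which 1 reads CAGATG on the opposite strand. The windows of Olig2, called higher, of Cspg4, called lower, and of Enpp6, not tested, held none, so that windows with and without an E-box occurred among the genes that rose. Searched on both strands, an E-box occurs in 66.2% of 32851 promoter windows of this length, CAGATG in 14.4% and CAGCTG in 13.0%, so that its presence is common. A match describes letters only and not a bound site, and the absence of a match says nothing about a factor.

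Gpr17 (ENSMUSG00000052229, chromosome 18 from 31942997 to 31949636) encodes a G protein-coupled receptor of cells that leave the precursor state. It was almost undetected in ASTs, with 2, 1 and 2 fragments or 0.0230, 0.00949 and 0.0207 FPKM. A-iSCs had 1.04, 2.11 and 2.40 FPKM from 109, 260 and 334 fragments. All 3 A-iSC samples lay far above the ASTs (log2 fold change 1.45 ± 0.20, adjusted p = 0.000724). The ratio of the summed fragments, at the library sizes behind the FPKM, was 110.5 with a counting interval of 47.1 to 341.5. P56-NPCs were 18.4-fold above A-iSCs, at 34.9, 35.4 and 31.7 FPKM. P0-NPCs had 0.589, 0.787 and 0.489 FPKM, below A-iSCs (log2 fold change of A-iSCs over P0-NPCs 0.78 ± 0.20, adjusted p = 0.00962). The gene Lims2 on the other strand shares 188 exon bases, or 3.62%, with Gpr17 and had 2.68 FPKM in ASTs, 1.26 in A-iSCs, 10.4 in P56-NPCs and 0.669 in P0-NPCs, so it did not follow Gpr17 from ASTs to A-iSCs.

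Enpp6 (ENSMUSG00000038173, chromosome 8 from 46986887 to 47096762) encodes a choline phosphodiesterase of newly formed oligodendrocytes. P56-NPCs had 12.9, 10.1 and 13.7 FPKM, and the highest of all other samples had 0.239 FPKM. The AST samples had 0.102, 0.0923 and 0.0420 FPKM from 11, 12 and 5 fragments, and the A-iSC samples 0.209, 0.203 and 0.239 FPKM from 27, 31 and 41 fragments. These groups did not overlap, but both means were under 1 FPKM and the gene was not tested between them. Without the filter on low values the log2 fold change was 0.17 (adjusted p = 0.0165). P0-NPCs had 0.0273, 0.129 and 0.0170 FPKM from 4, 24 and 3 fragments. Enpp6 and Gpr17, both genes of commitment, thus differed in A-iSCs, where Gpr17 reached 5.43% and Enpp6 1.77% of the P56-NPC mean.

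**Figure D2:**
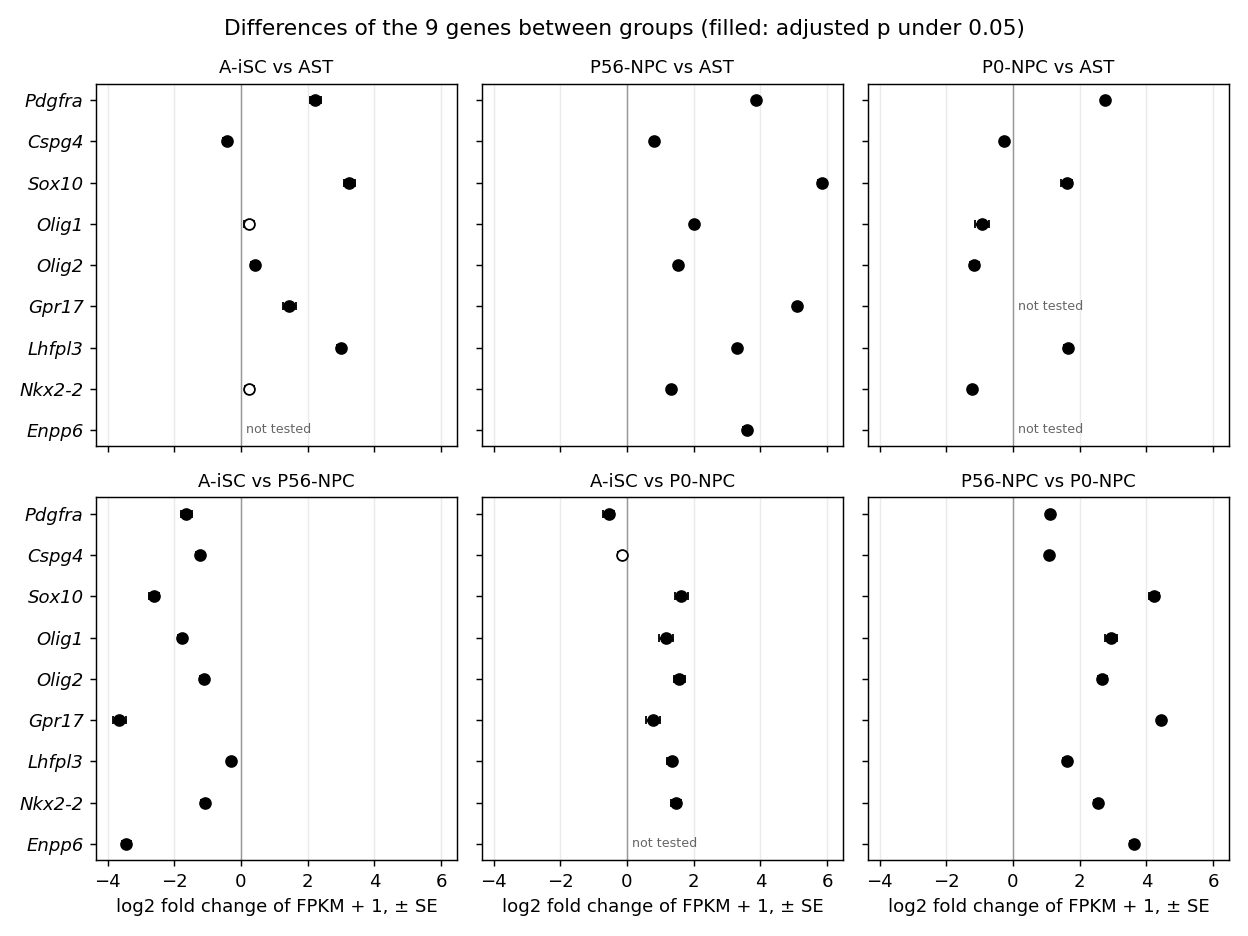
Log2 fold change of FPKM + 1 of each gene in the 6 comparisons, first group over second, with its standard error; filled points passed an adjusted p under 0.05 and open points did not. All 9 points lie right of 0 for P56-NPCs over ASTs and over P0-NPCs and left of 0 for A-iSCs over P56-NPCs, where Lhfpl3 turned with scaling by library size, while Cspg4 alone lies left of 0 among the genes tested for A-iSCs over ASTs.

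Between the NPC suspensions the genes of commitment differed most in the ratio of the means, and no test compared the genes with each other. On the log2(FPKM + 1) scale Sox10 differed more than Enpp6. Gpr17, Nkx2-2 and Enpp6 were under 1 FPKM in P0-NPCs and were tested through P56-NPCs alone. P56-NPCs exceeded P0-NPCs 213-fold in the mean of Enpp6, where P0-NPCs had 31 fragments in all and the ratio was 554 without P0-NPC replicate 2, and 54.7-fold in that of Gpr17. Sox10 was 24.6-fold and Nkx2-2 18.1-fold higher, Olig1 and Olig2 7.62-fold and 6.81-fold. Lhfpl3, Cspg4 and Pdgfra, the surface genes of precursors, differed least, by 3.48-fold, 2.63-fold and 2.29-fold. All of these folds are at the authors' scaling and are lower with library size scaling. That scaling moved the median log2 fold change of all genes from 0.01 to -0.53 for P56-NPCs over P0-NPCs. A-iSCs compared with P0-NPCs in another order: Nkx2-2 was 7.27-fold, Sox10 3.80-fold, Enpp6 3.77-fold, Olig2 3.10-fold, Gpr17 2.97-fold, Lhfpl3 2.79-fold and Olig1 2.23-fold higher in A-iSCs. Enpp6 was under 1 FPKM in both of these groups and was not tested between them. Cspg4 and Pdgfra had 0.865 and 0.660 times the P0-NPC means. Set against P56-NPCs, the A-iSC means reached 80.3% for Lhfpl3, 45.5% for Olig2, 40.2% for Nkx2-2, 32.9% for Cspg4, 29.2% for Olig1, 28.8% for Pdgfra and 15.4% for Sox10. The AST means reached 49.9% for Cspg4, 33.8% for Olig2, 31.2% for Nkx2-2 and 24.6% for Olig1, but 5.24% for Lhfpl3, 1.96% for Pdgfra and 0.385% for Sox10.

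In bulk samples a larger number of cells that express a gene and more RNA per cell cannot be told apart, which holds for all values given here. Ratios of genes within a library do not depend on the scaling between libraries. Olig2 exceeded Sox10 by 331, 71.4 and 71.2 times in the AST samples, where the first value rests on 4 fragments of Sox10. The ratio was 3.14, 2.93 and 3.70 in A-iSCs, 1.10, 0.953 and 1.24 in P56-NPCs, and 4.16, 3.70 and 4.12 in P0-NPCs. In ASTs, Olig2 was thus present with little Sox10, whereas in P56-NPCs both were at about the same level. A-iSCs and P0-NPCs lay close together in this ratio although their Olig2 levels differed by 3.10-fold.

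The summed FPKM of the 9 genes was 118 ± 11.6 (SD, n = 3) in ASTs, 174 ± 14.0 in A-iSCs, 591 ± 2.73 in P56-NPCs and 76.4 ± 17.3 in P0-NPCs. Olig1 and Olig2 together made up 93.9 to 94.7% of this sum in ASTs, 76.3 to 79.7% in A-iSCs, 69.7 to 73.3% in P56-NPCs and 70.3 to 75.5% in P0-NPCs. The ratio of Gpr17 to Pdgfra, commitment against precursor gene, was 0.0311 to 0.0633 in ASTs, 0.232 to 0.432 in A-iSCs, 1.69 to 1.85 in P56-NPCs and 0.0610 to 0.0867 in P0-NPCs. The ratio of Lhfpl3 to Pdgfra was 1.95 to 3.42 in A-iSCs and 2.12 to 3.27 in ASTs, ranges that overlapped while both genes rose. It was 0.894 to 1.05 in P56-NPCs and 0.516 to 0.670 in P0-NPCs.

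**Figure D3:**
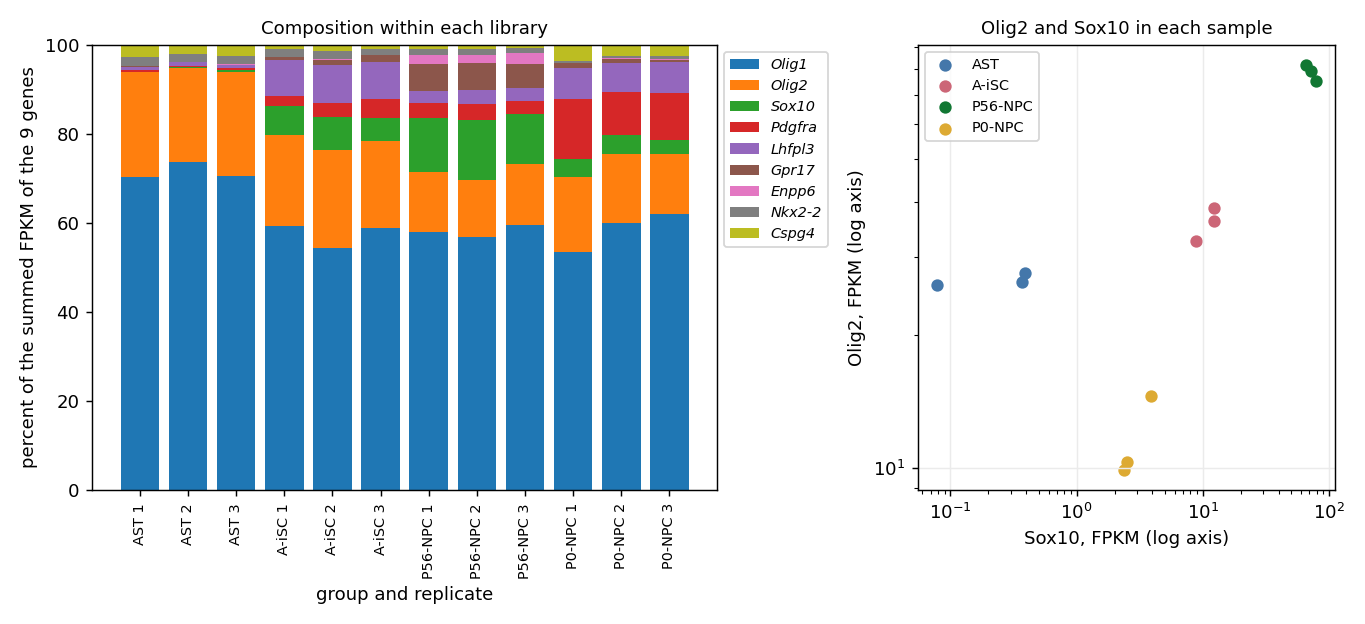
Left, the percent of the summed FPKM of the 9 genes taken by each gene in each of the 12 samples; right, Olig2 against Sox10 in FPKM with both axes on a log scale and 1 point per sample. Olig1 and Olig2 fill 93.9 to 94.7% of the bars of ASTs and 69.7 to 79.7% of the others, and the AST points lie to the left, at low Sox10, at an Olig2 level above that of P0-NPCs.

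Among P0-NPCs, replicate 2 had the highest value of its group for 8 of the 9 genes, all but Nkx2-2, and replicate 1 the lowest for 6. The spread was widest for Enpp6, with 24 fragments in replicate 2 against 4 and 3. In the other groups no replicate was highest for more than 6 of the 9 genes, and A-iSC replicate 3 was lowest for 5 and highest for 3, among these Pdgfra and Gpr17.

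Other genes of precursors (11 genes listed by name) moved in both directions. Of 8 tested between A-iSCs and ASTs, 5 were higher and 3 lower, with a median log2 fold change of 0.86. As with the members, some list genes were tested because A-iSCs alone reached 1 FPKM, which holds for 2 of these 5 higher genes, and in the lists that follow for 3 of 4 higher committed genes, 3 of 5 myelin genes and 3 of 7 regulators. C1ql1, which encodes a secreted C1q-like protein, had the largest difference on the log2(FPKM + 1) scale, with 4.41, 6.56 and 5.01 FPKM in ASTs and 92.2, 119.6 and 89.9 FPKM in A-iSCs (log2 fold change 4.01 ± 0.17, adjusted p = 5.89e-06). It was also higher in A-iSCs than in P56-NPCs (2.18 ± 0.13, adjusted p = 1.08e-05), the opposite of all 9 members. Cacng4, a subunit that accompanies AMPA-type glutamate receptors, rose from 0.746 to 16.4 FPKM in the means (log2 fold change 3.31 ± 0.11), a ratio of 21.9 against 18.9 for C1ql1, and Ptprz1, a receptor-type phosphatase, from 6.62 to 23.2 FPKM. Susd5, tested through ASTs alone, fell from 1.85 to 0.219 FPKM, and the matrix proteoglycan gene Vcan and Xylt1 fell as well. In P56-NPCs, 8 of 10 tested genes of the list were above ASTs and 1 was below, and in P0-NPCs 5 of 8 were above and 2 below, where 4 of the 8 and 2 of the 5 higher genes had been tested through the NPC group alone.

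Genes of committed and premyelinating cells (15 genes) showed no common direction in A-iSCs. Of 10 tested against ASTs, 4 were higher and 2 lower, and the median was 0.28. Bcas1, a marker of the premyelinating stage, had 0.0474, 0.0784 and 0.0856 FPKM in ASTs, 6.31, 6.37 and 6.29 in A-iSCs, 530, 554 and 581 in P56-NPCs, and 1.27, 1.97 and 1.38 in P0-NPCs. Bcas1 rose in A-iSCs by 2.77 ± 0.10 on the log2 scale (adjusted p = 3.65e-06) and yet was 6.24 below P56-NPCs. Bmp4, a secreted bone morphogenetic protein, fell from 14.7 to 0.745 FPKM and was tested through ASTs alone. Myrf, the transcription factor required for myelin gene expression, had 0.174 to 0.340 FPKM in ASTs, 0.185 to 0.288 in A-iSCs, 0.204 to 0.289 in P0-NPCs and 32.9 to 35.6 in P56-NPCs, so it was too low to be tested in A-iSCs against ASTs. Neu4, Zfp488 and 9630013A20Rik had no fragment in any AST sample and means of 0.0696, 0.404 and 0.130 FPKM in A-iSCs. In P56-NPCs 13 of 15 genes of the list were higher than in ASTs and 1 was lower, and 8 of the 13 were tested through P56-NPCs alone.

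Myelin genes (11 genes) were tested for 5 members between A-iSCs and ASTs, and all 5 were higher in A-iSCs. Mbp, which encodes myelin basic protein, had 0.282, 0.291 and 0.312 FPKM in ASTs and 4.08, 4.45 and 4.16 FPKM in A-iSCs (log2 fold change 2.01 ± 0.10, adjusted p = 8.80e-06). Cldn11, a tight-junction gene of myelin, rose by 2.80 ± 0.11. These levels were small against P56-NPCs, where Mbp had 4994, 5159 and 5660 FPKM, and from which A-iSCs differed in all 11 myelin genes, with a median log2 fold change of -7.51 and 6 of the 11 tested through P56-NPCs alone. Mobp and Opalin had no fragment in ASTs and 0.0452 and 0.0575 FPKM in A-iSCs. The summed level of the 11 genes was 19.2 to 20.8 FPKM in ASTs, 63.4 to 87.4 in A-iSCs, 26.6 to 37.7 in P0-NPCs and 12292 to 14170 in P56-NPCs. In A-iSCs, Cnp, an enzyme of myelin membranes that was at 17.5 FPKM in ASTs, made the largest contribution with 54.7 FPKM. The P56-NPC suspension thus held abundant RNA of genes that mark mature oligodendrocytes, beside the high levels of the 9 genes.

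**Figure D4:**
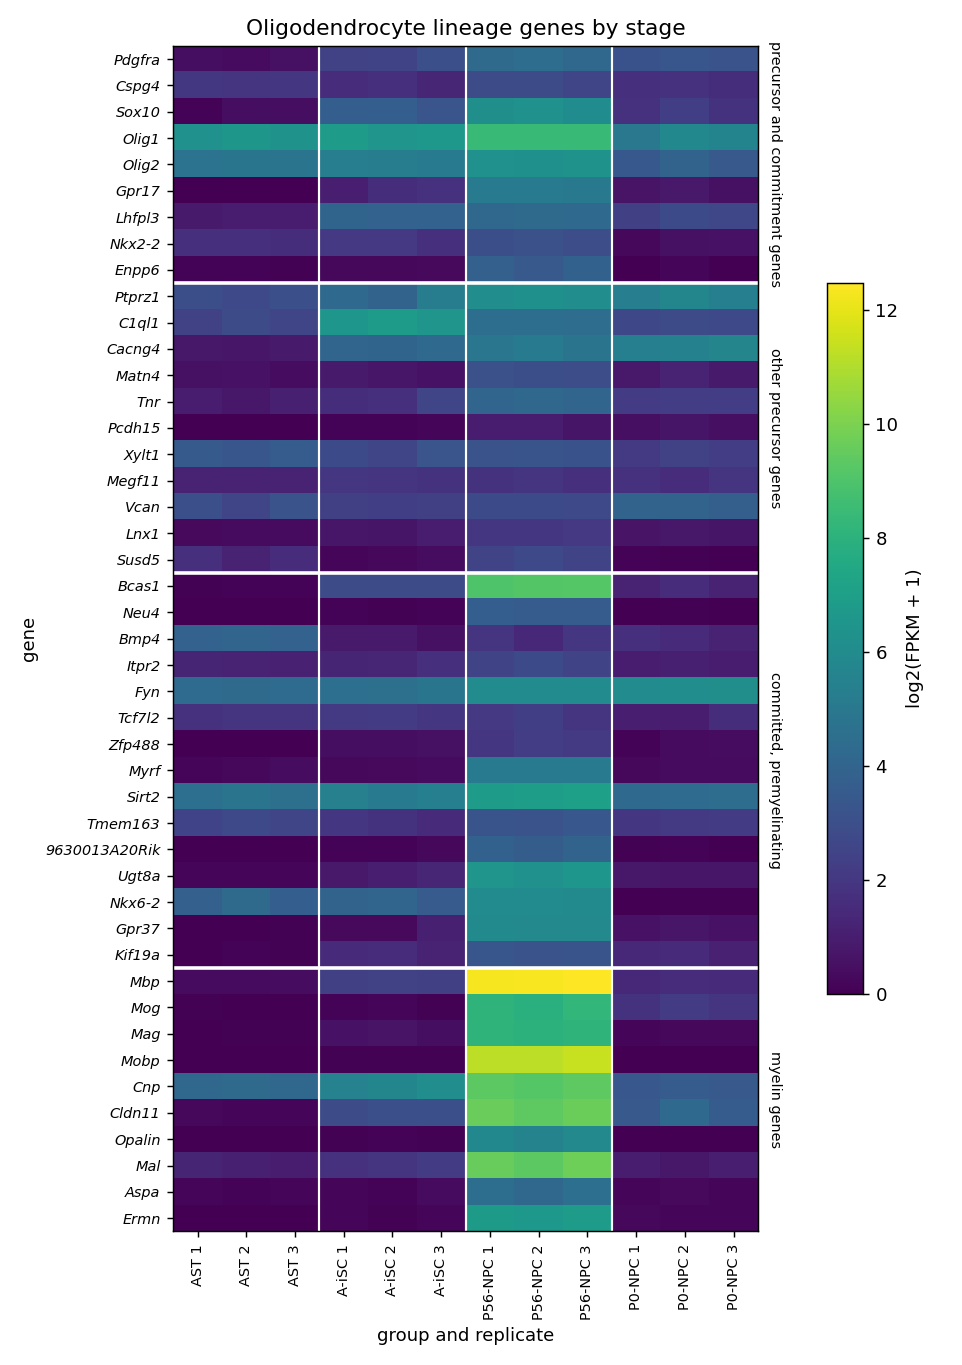
Level of the 9 genes and of the other precursor, committed and myelin genes named or counted here (rows; 1 myelin gene is not drawn) in each of the 12 samples (columns), as log2(FPKM + 1) by colour. The A-iSC columns are brighter than the AST columns for Sox10, Lhfpl3, C1ql1 and Cacng4. The myelin block is brightest in the P56-NPC columns, at 12292 to 14170 FPKM in the sum of the whole list. In the other columns Cnp reaches means of 54.7 FPKM in A-iSCs and 17.5 in ASTs, and Cldn11 13.3 in P0-NPCs.

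Other transcriptional regulators of the lineage (13 genes) were above ASTs in A-iSCs for 7 of 12 tested and lower for none, with a median of 0.97. Hes5, a target of Notch signalling, rose from 0.463 to 7.88 FPKM, and Myt1, a zinc-finger factor of precursors, from 0.0287 to 2.35 FPKM. Sox8, a relative of Sox10, did not pass the test and had means of 16.1 FPKM in ASTs and 18.7 in A-iSCs.

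The PDGF ligand genes and Pdgfrb, which encodes the second PDGF receptor, moved the other way from Pdgfra. Pdgfa, the main ligand for precursors, had 47.4, 58.4 and 44.8 FPKM in ASTs and 17.0, 15.9 and 9.71 FPKM in A-iSCs (log2 fold change -1.78 ± 0.22, adjusted p = 0.000440). Pdgfb, Pdgfc, Pdgfd, whose product acts mainly through the second receptor, and Pdgfrb were lower as well, so 5 of 5 fell. Pdgfa was at 17.6 ± 2.38 FPKM (SD, n = 3) in P56-NPCs and at 5.70, 5.46 and 5.06 FPKM in P0-NPCs. ASTs had the highest Pdgfa and the lowest Pdgfra of the 4 groups. In P0-NPCs, Pdgfrb had 12.2 FPKM in the mean, against 11.1 in ASTs and 2.79 in A-iSCs.

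Genes of the same families as the members (8 genes) moved in both directions, with 3 higher and 1 lower in A-iSCs than in ASTs among the 4 tested, of which Enpp2 was tested through A-iSCs alone. Olig3 had at most 0.0779 FPKM in the mean of any group. Nkx2-1 fell from 3.02 FPKM in ASTs to 1.18 in A-iSCs (log2 fold change -0.89 ± 0.15, adjusted p = 0.00236). Lhfpl2 and Lhfpl4 rose from ASTs to A-iSCs by 1.02 and 1.11, less than the 2.99 of Lhfpl3. Enpp2, which encodes the lysophospholipase autotaxin and is high in oligodendrocytes, rose from 0.228 to 3.36 FPKM and had 290 FPKM in P56-NPCs.

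Markers of other cell types moved with the same comparisons. Microglial markers (7 genes) were above ASTs in A-iSCs for 7 of 7, of which 1 was tested through A-iSCs alone, and summed to 1331 to 1679 FPKM in A-iSCs, 142 to 159 in ASTs, 618 to 657 in P56-NPCs and 85.3 to 98.5 in P0-NPCs. C1qa, a complement gene, took most of this sum in A-iSCs, with 1029 FPKM in the mean against 213 in P56-NPCs, and the other 6 genes summed to 383 to 444 FPKM in A-iSCs, 418 to 439 in P56-NPCs and 56.3 to 73.0 in ASTs. Between A-iSCs and P56-NPCs, 3 of the 7 were higher in A-iSCs and 2 lower, the latter being P2ry12, with 7.30 and 60.2 FPKM, and Tmem119, with 16.8 and 52.2. Astrocyte markers (7 genes) were above ASTs in A-iSCs for 6 of 7. They summed to 1199 to 2454 FPKM in A-iSCs, 140 to 159 in ASTs, 2368 to 2589 in P56-NPCs and 237 to 302 in P0-NPCs. Gfap and Aldoc took most of the A-iSC sum, with means of 970 and 406 FPKM against 29.9 and 13.0 in ASTs. Gja1 had means of 28.3 FPKM in A-iSCs and 24.8 in ASTs. Neuronal markers (6 genes) summed to 36.4 to 58.9 FPKM in A-iSCs, 81.6 to 118.6 in ASTs, 135 to 164 in P56-NPCs and 803 to 991 in P0-NPCs. Ependymal markers (5 genes) were above ASTs in A-iSCs for 4 of 5, of which 2 were tested through A-iSCs alone, and summed to 262 to 356 FPKM in P56-NPCs against 42.8 to 103 elsewhere. The part of changes in cell composition in the levels of the 9 genes was not tested.

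**Figure D5:**
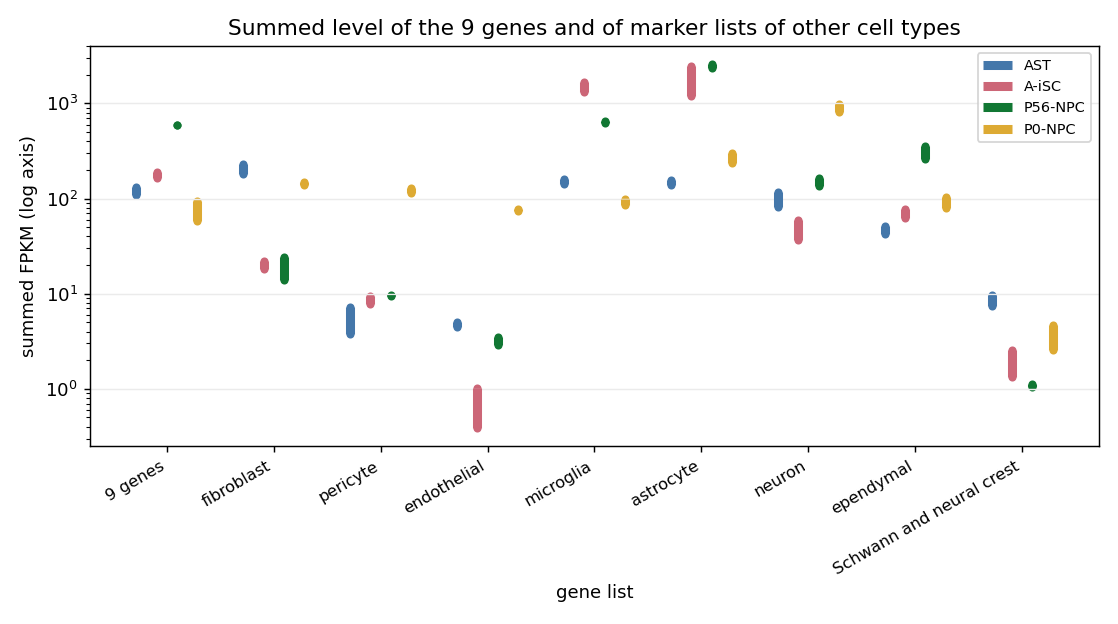
Summed FPKM, on a log axis, of the 9 genes and of 8 marker lists of other cell types, drawn from the lowest to the highest of the 3 samples of each group. The microglial sum is highest in A-iSCs at 1331 to 1679 FPKM, mostly C1qa, without which A-iSCs and P56-NPCs overlap at 383 to 444 and 418 to 439 FPKM, and the pericyte, endothelial and neuronal sums are highest in P0-NPCs.

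The 9 genes fell into patterns over the 12 samples that are given as descriptions, since the samples of a group share their source. The Pearson correlation of log2(FPKM + 1) was 0.99 between Olig2 and Nkx2-2, 0.97 between Olig1 and Olig2, 0.97 between Gpr17 and Enpp6, and 0.92 between Sox10 and Lhfpl3, and it was 0.29 between Pdgfra and Nkx2-2 and 0.28 between Cspg4 and Lhfpl3. Of 13651 other protein-coding genes, the nearest to Pdgfra was Cspg5 (r = 0.998), a neural proteoglycan gene with means of 2.02 FPKM in ASTs, 16.2 in A-iSCs, 62.6 in P56-NPCs and 22.7 in P0-NPCs, followed by Mllt6 and Kbtbd11. The nearest to Gpr17 was Bcas1 (r = 0.996), followed by Mtfp1 and Lgi3. Enpp6 lay nearest to Sntn, Opalin and Fa2h (r = 0.998 to 0.999). These had means of 12.8, 53.1 and 80.3 FPKM in P56-NPCs and at most 0.145 in any other group. Sox10 lay nearest to Pink1, Tmem100 and Smox, Lhfpl3 to Slc9a9, Nim1k and Pla2g7, and Cspg4 to Sytl5, Rims2 and Hhip. Tuba4a was the nearest gene to both Olig2 (r = 0.993) and Nkx2-2 (r = 0.996), followed by Ppm1m and Mettl7a1 for Olig2 and by Slc48a1 and Fth1 for Nkx2-2, and Olig1 lay nearest to Tmem141, Sox8 and Pyurf.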

How the data were processed

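The authors prepared libraries from total RNA with a NEBNext Ultra kit and sequenced them as paired ends on an Illumina HiSeq. The submitters' processing notes name Bowtie 0.12.2 and build mm8, whereas the positions in the deposited table are those of GRCm38: the coordinates of 54899 out of 55154 genes also found in GENCODE M21 were identical. The authors deposited FPKM of 55862 genes with the gene lengths used; strand handling is not given in the sources used here. Every value was a whole multiple of the worth of 1 fragment within 0.05 (100% of values), which gave the fragment numbers. The values already held a scaling between libraries that differed by group. Ratios of the library size behind the FPKM to the fragments on genes ran from 0.744 in P56-NPCs to 1.22 in P0-NPCs.

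Groups were compared in pairs, 3 samples against 3, with limma 3.58.1 in R 4.3.3 (linear model with a mean-variance trend, two-sided) on log2(FPKM + 1), over genes with a mean of at least 1 FPKM in either group, with Benjamini-Hochberg adjustment over all of them. In 6 comparisons, a gene with an adjusted p under 0.05 was called higher or lower. An exact permutation test of 3 against 3 cannot go below p = 0.1 and was not used. Ratios of summed fragments were taken at the library sizes behind the FPKM. They have exact 95% intervals, which cover counting error only. The fits were tested on simulated data.

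The 9 genes, the gene lists and the marker lists were chosen with earlier results of these data known. Named beside the 9 genes were, from each list, called genes with the 4 largest absolute log2 fold changes in a comparison, list genes without a fragment in any of the 12 samples, the 3 protein-coding genes with the highest Pearson correlation to each member over 12 samples, and genes whose exons overlap a member. Xylt1, Neu4, Zfp488, 9630013A20Rik, Foxd3 and Olig3 fall outside this rule and were named after their values were seen. A few list genes that the rule names are not reported here. Primer sequences come from the study's supplementary table and promoters from RefSeq. The authors' own test, DESeq2 on counts, was not repeated. The alternatives were a pseudocount of 0.1, no filter, upper-quartile scaling, library size scaling, all 4 groups in the fit, the replicate number as a block, limma-voom on the recovered fragments, stricter calls (adjusted p under 0.01, or log2 fold change beyond 1), and leaving out each sample.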

Additional observations from a re-analysis of the deposited data

How the results depend on the processing

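The number of the 9 genes called ranged, over the fits that each left out 1 sample, from 4 to 7 for A-iSCs and ASTs (6 with all samples), 6 to 7 for P0-NPCs and ASTs, 8 to 9 for A-iSCs and P56-NPCs, and 6 to 7 for A-iSCs and P0-NPCs, and was 9 in both comparisons of P56-NPCs with ASTs and with P0-NPCs. Over the other alternatives these counts were 4 to 7, 5 to 8, 8 to 9, 5 to 8, 8 to 9 and 9. Of 300 values recomputed without a sample, 281 kept their direction and side of the threshold, 18 lost a call and 1 gained one. Of 454 under the other alternatives, 431 kept both, 17 lost a call and 5 gained one. A single value turned, the log2 fold change of Lhfpl3 for A-iSCs over P56-NPCs, from -0.30 to 0.23 with library size scaling, and the cause was not tested. That scaling moved the median log2 fold change of all genes from -0.06 to 0.13 for A-iSCs over ASTs, -0.03 to -0.34 for P56-NPCs over ASTs, -0.07 to 0.21 for P0-NPCs over ASTs, 0.03 to 0.49 for A-iSCs over P56-NPCs and 0.01 to -0.53 for P56-NPCs over P0-NPCs, and upper-quartile scaling moved the first to -0.17. With library size scaling the share of higher among called genes went from 46.0 to 60.4%, 49.5 to 37.7%, 48.2 to 59.4%, 49.4 to 74.4% and 50.4 to 26.7% in these comparisons. Without the filter, Enpp6 was called for A-iSCs over ASTs (0.17) and over P0-NPCs (0.20), and Gpr17 for P0-NPCs over ASTs (0.67). Residual correlations between replicates of the same number ran from -0.38 to 0.43 and were over 0.1 for all 3 numbers in 0 of 6 comparisons. Both extremes came from A-iSCs and ASTs, with -0.38, 0.34 and 0.43 for numbers 1, 2 and 3. With 3 samples per group these values cannot exclude a link between samples of the same number. With the replicate block, 6 of the 9 genes were again called between A-iSCs and ASTs, and among the 9 genes only Lhfpl3 lost its call, for A-iSCs against P56-NPCs (adjusted p = 0.0803). Samples that correlated best with their own number were 3 of 6 for A-iSCs and ASTs. Values resting on few fragments, as for Gpr17, Enpp6 and Sox10 in ASTs, are limited by depth.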
